A study of Mus musculus with 3 samples.

Results

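The genes described here encode the proteins of the cytoplasmic ribosome. They were taken by name, as every transcript whose gene symbol has the form of a large subunit (Rpl) or small subunit (Rps) protein, together with Rplp0, Rplp1, Rplp2 and Rpsa and without the Rps6k kinases, and the rule uses no measured value. The deposited table held 54 such transcripts of 46 genes, among 16383 transcripts in all. They comprised 28 large subunit genes and 18 small subunit genes. Another 43 genes with names of this form, among them Rpl5, Rpl11, Rps10, Rps19, Rplp1 and Rplp2, were not analysed here.

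The RNA came from whole lungs of mice of a mixed C57BL/6J background. There were 2 double-knockout libraries (DKO 1 and DKO 2, genotype Lin28a and Lin28b KO) and 1 wild-type library (WT). In the knockouts, exon 2 of both genes lay between loxP sites and was removed by tamoxifen-induced recombination, with an Nkx2-1-driven CreERT that acts in lung epithelium. The labels give neither the age of the mice nor whether the libraries were separate animals, so the spread between the DKO libraries may be partly technical. The labels also do not say whether the WT animal carried the Cre or received tamoxifen. RNA was measured in all lung cells, whereas the deletion was confined by design to epithelium, and in whole tissue fewer cells of a type and less RNA per cell cannot be told apart.

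A ribosome is built from a small subunit, which decodes the mRNA, and a large subunit, which joins amino acids. Most of the proteins are needed in equal numbers, and their mRNAs are among the most abundant of growing cells. The mRNAs of nearly all ribosomal proteins begin with a short pyrimidine tract (the 5′ terminal oligopyrimidine tract, or TOP), through which growth signals act on their translation. Lin28 proteins block maturation of let-7 microRNAs and also bind mRNAs, and mRNAs of ribosomal proteins are among their known targets in human embryonic stem cells. The table measures the amount of mRNA and not its translation.

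The start sites of 6 members are shown for the pyrimidine tract. Each line gives 50 bases before and 20 bases after the start used in the RefSeq promoter table (GRCm38.p6), read 5′ to 3′ on the gene's strand, and the capitals mark the longest unbroken run of C and T that touches the 20 bases on either side of the start. The first 3 genes lay above WT in both DKO libraries and the last 3 below it, under the deposited scaling and the 4 other scalings tried.
Rpl18 (chr7:45718021-45718090, plus strand): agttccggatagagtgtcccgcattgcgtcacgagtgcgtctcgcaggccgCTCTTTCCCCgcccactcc
Rpl7a (chr2:26910757-26910826, plus strand): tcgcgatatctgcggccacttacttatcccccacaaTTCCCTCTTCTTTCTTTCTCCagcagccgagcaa
Rps26 (chr10:128626487-128626556, minus strand): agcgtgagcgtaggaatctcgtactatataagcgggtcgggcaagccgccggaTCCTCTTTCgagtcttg
Rpl13a (chr7:45128726-45128795, minus strand): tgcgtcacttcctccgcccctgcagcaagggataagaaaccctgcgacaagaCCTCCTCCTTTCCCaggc
Rps4x (chrX:102189372-102189441, minus strand): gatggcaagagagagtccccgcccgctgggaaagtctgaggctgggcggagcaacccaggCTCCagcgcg
Rps6 (chr4:86857348-86857417, minus strand): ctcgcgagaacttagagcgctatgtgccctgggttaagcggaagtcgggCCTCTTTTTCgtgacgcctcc
The run was 10 bases in Rpl18, 21 in Rpl7a, 9 in Rps26, 14 in Rpl13a, 4 in Rps4x and 10 in Rps6. Runs of 10 bases or more thus stood on both sides of WT, and Rps4x had no long run. The start used lies at the edge of the RefSeq gene span for 4 of these genes, but 2604 bases inside it for Rpl18 and 122 bases inside it for Rpl7a.

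RefSeq start windows were found for 25 of the 37 tested member genes, as 26 windows. A run of 8 or more bases touching the 20 bases on either side of the start was present in 46.2% of these windows. The shares were 20.2% of the 1824 windows of other tested genes and 21.0% of all 32851 windows. Such a run need not begin at the start. It was found in 5 of 8 windows of members above WT in both DKO libraries, in 3 of 6 windows of members below WT in both, and in 4 of 12 windows of members below WT in DKO 1 and above it in DKO 2. Motifs were searched on both strands of the 300 bases from 250 before the start to 50 after it. The ETS-type sequence CCGGAAG was in 38.5% of member windows, against 16.2% of those of other tested genes and 8.86% of all windows. The Sp1-type sequence GGGCGG was in 57.7%, 64.4% and 35.7% of the windows in the same order, the TATA box TATAAA in 7.69%, 8.99% and 13.6%, and the YY1-type sequence AAGATGGC in 3.85%, 4.22% and 2.75%. CCGGAAG and AAGATGGC share letters at their ends, so their matches can overlap, and a match describes these letters only.

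The libraries held about 30700000 reads for DKO 1, 34200000 for DKO 2 and 48700000 for WT, as estimated from the smallest values of the table. Values are RPKM, that is, reads scaled to the length of the transcript and the depth of the library. Lin28b itself had 0.187 RPKM in DKO 1 and 0.590 in DKO 2, against 0.449 in WT. It was thus not lower than WT in the library labelled DKO 2. Each value was below 1 RPKM, the minimum mean for the test. The values cover the transcript in all lung cells and not exon 2 alone. The epithelial gene Sftpc had 7.55 and 0.0364 RPKM in the DKO libraries, against 369 in WT, and Nkx2-1 was listed at 0 in all 3 libraries. The lung epithelial list, with 11 of 16 genes above 0, summed to 114 and 67.2 RPKM in the DKO libraries and 492 RPKM in WT. Sftpc alone made up 369 RPKM of that WT sum. Of the 9 tested genes of this list, 6 were below WT in both DKO libraries and 1 was above it in both. Over all tested transcripts these shares were 31% and 32.1%. The lung mesenchyme list, with 14 of 16 genes above 0, summed to 241 and 199 RPKM in the DKO libraries and 207 RPKM in WT. The Y-linked gene Eif2s3y had 15.0 and 5.07 RPKM in the DKO libraries and was listed at 0 in WT, so sex cannot be told apart from genotype. The red blood cell list had 14 of 19 genes above 0, with summed levels of 28716 and 102783 RPKM in the DKO libraries and 20202 RPKM in WT. In that list Hba-a1, Hba-a2, Hbb-b1, Hbb-bt and Alas2 were listed at 0.

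Not every member was measured well. Of the 54 transcripts, 33 averaged at least 200 RPKM, 4 averaged between 1 and 200 RPKM, and 17 averaged below 1 RPKM, and 11 of these had 0 throughout. The gap was wide: the lowest of the 33, Rps2, averaged 360 RPKM, and the highest of the others, Rps27a, averaged 12.0 RPKM. Of the 33 genes with a single RefSeq mRNA, 30 were above 200 RPKM. Of the 13 genes with 2 or more, 3 were (Rpl10a, Rpl29 and Rps15) and 6 had no transcript above 1 RPKM. Those 6 were Rpl19, Rpl22, Rpl34, Rpl35a, Rpl3l and Rps24. Most of them encode regular ribosome components, so such a level may be a failed estimate. The part of overlapping transcripts in these levels was not tested. Gapdh was also low, with at most 0.185 RPKM in any library.

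The 3 genes with a single RefSeq mRNA that averaged below 1 RPKM were Rpl10l, Rpl32l and Rpl26. Rpl10l, a copy of Rpl10 that is known from the testis, was listed at 0 in all libraries. Rpl32l had 0.716 RPKM in DKO 1 and 1.58 in DKO 2, against 0.520 in WT. Rpl26, a regular component of the large subunit, was listed at 0 in both DKO libraries and had 0.454 RPKM in WT. Rpl3l, the paralog of Rpl3 known from heart and skeletal muscle, has 2 RefSeq mRNAs, not all of which were listed. Its listed transcript was at 0 throughout, as were all 3 transcripts of Rpl22. Ribosomal protein genes have many processed pseudogenes of near-identical sequence, and how reads with several matches were treated is not given in the sources used here, so every level below is uncertain to that extent.

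The 37 members that averaged 1 RPKM or more, 20 of the large and 17 of the small subunit, entered the test across all 2066 such transcripts. Of the 37, 0 passed limma with Benjamini-Hochberg adjustment (adjusted p of 0.999 for every member), and 0 had an unadjusted p under 0.05. Over all tested transcripts, 0.0968% were called and 3.19% had an unadjusted p under 0.05. No member was 2-fold or more above WT in both DKO libraries, or below it in both, where 5.47% of all tested transcripts did. The spread in this test came from the DKO pair alone, and the WT library was assumed to vary like it. An exact permutation test over 3 libraries could not give a p below 0.333 and was not used.

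The pair of DKO libraries stood on opposite sides of WT. The median difference in log2(RPKM + 1) over the 37 members was −0.50 in DKO 1 and 0.23 in DKO 2, against −0.01 and 0.04 over all tested transcripts. In DKO 1, 9 of 37 members lay above WT, where 49.1% of all tested transcripts did. In DKO 2, 27 of 37 lay above WT, where 52.1% did. Directly compared, 31 of 37 members were higher in DKO 2 than in DKO 1, where 53.8% of all tested transcripts were, and the median ratio was 1.60. With the table rescaled to a fixed sum (TPM), the median of DKO 2 was −0.15, on the other side of WT, while that of all tested transcripts was −0.30, and 26 of 37 members were higher in DKO 2 than in DKO 1.

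**Figure D1:**
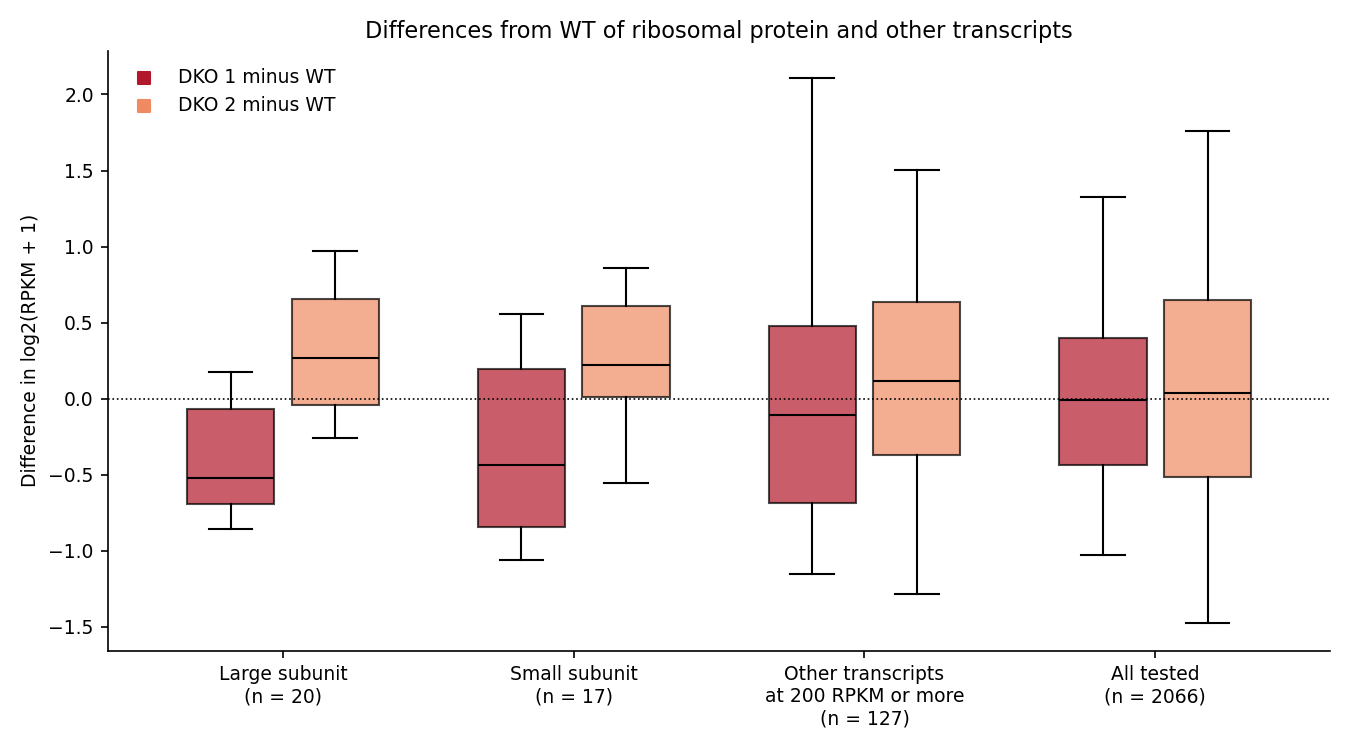
Box plots of the difference from WT in log2(RPKM + 1) for large subunit members, small subunit members, other transcripts averaging at least 200 RPKM and all tested transcripts, with DKO 1 left of DKO 2 in each pair. Boxes span the quartiles, the line is the median and whiskers reach the 5th and 95th percentiles over transcripts. The member medians are −0.52 and −0.43 in DKO 1 and 0.27 and 0.22 in DKO 2. The boxes of all tested transcripts straddle 0. With rescaling to TPM, which is not drawn, the DKO 2 medians are −0.11 and −0.16. That of all tested transcripts is then −0.30.

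Both subunits followed this pattern. The 20 large subunit transcripts had a median difference of −0.52 in DKO 1 (quartiles −0.69 and −0.07) and 0.27 in DKO 2 (quartiles −0.04 and 0.66). The 17 small subunit transcripts had a median of −0.43 in DKO 1 (quartiles −0.84 and 0.20) and 0.22 in DKO 2 (quartiles 0.01 and 0.61). With rescaling to TPM the DKO 2 medians were −0.11 for the large and −0.16 for the small subunit, below WT. That of all tested transcripts was then −0.30. Averaged over both DKO libraries, the medians were −0.09 for the large and −0.15 for the small subunit, against −0.01 for all tested transcripts. In all, 9 members lay above WT in both DKO libraries and 10 below it in both, where 32.1% and 31% of all tested transcripts did. A further 18 were below WT in DKO 1 and above it in DKO 2 (19.4% of all tested transcripts), and 0 showed the opposite (16.9%). The 10 members below WT in both DKO libraries were so under each of the 4 other scalings, but others joined them, and the count was 11 with median scaling and without globin genes, 13 with quantile normalization and 20 with rescaling to TPM. Of the 9 above it, Rpl27 and Rps7 left that side under each of the 4, and Rps18 and Rps29 with quantile normalization and rescaling to TPM. The shares of all tested transcripts on each side under these scalings are not given here. Rescaling to TPM moved the median of all tested transcripts from −0.01 to −0.22.

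Other abundant transcripts had medians nearer to WT. The 127 other transcripts that averaged at least 200 RPKM had a median difference of −0.10 in DKO 1 and 0.12 in DKO 2. The 33 members at that level had medians of −0.50 and 0.23. Among the 127, 72 were higher in DKO 2 than in DKO 1, and among the 33 members 29 were. These transcripts share their libraries, so the counts are a description, and the difference between the sets was not tested.

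**Figure D2:**
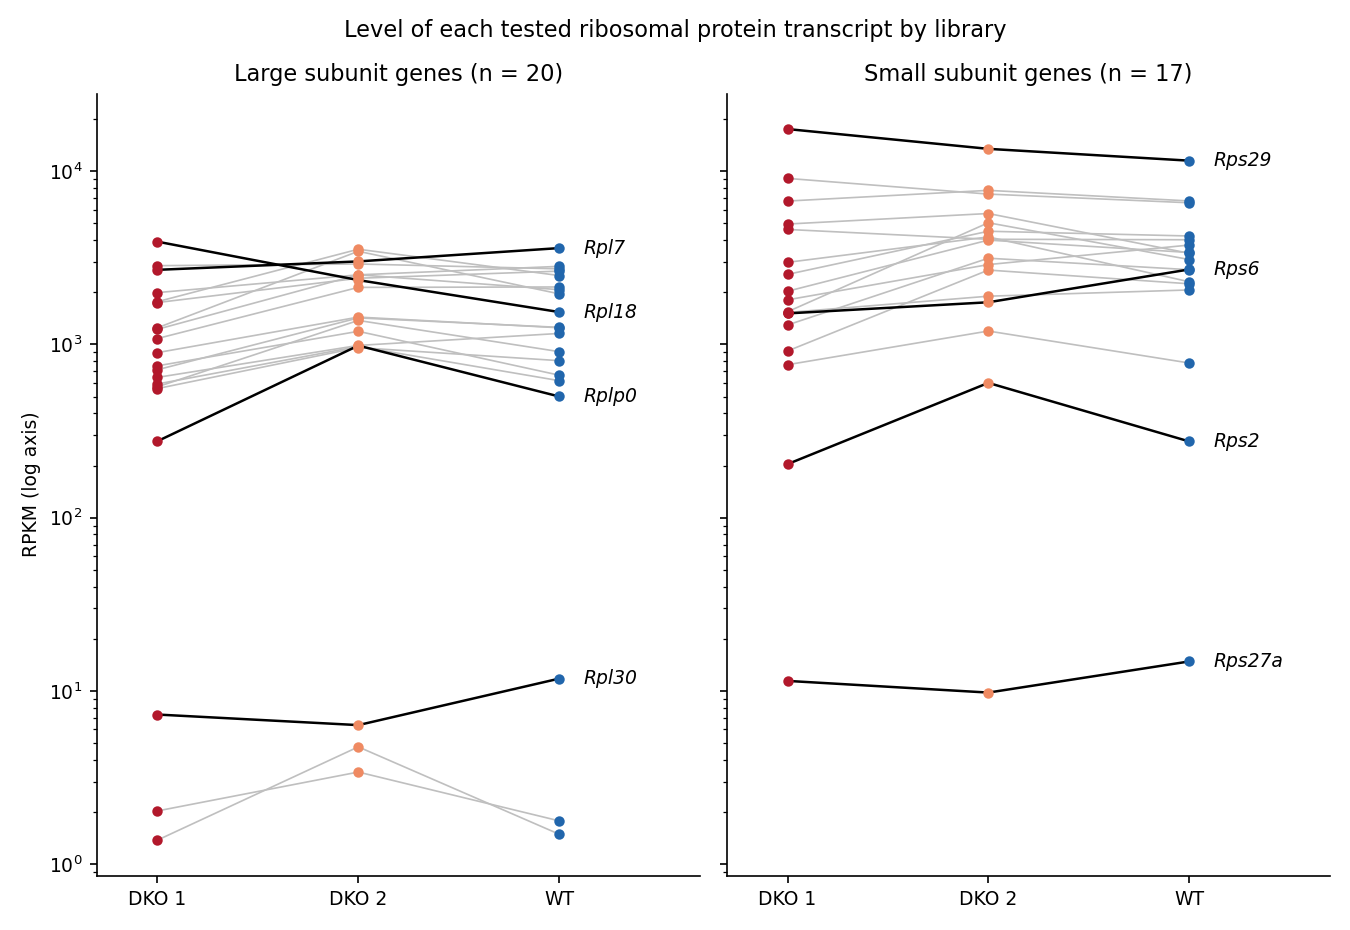
Level of each tested transcript in RPKM (log axis) in DKO 1, DKO 2 and WT, for 20 large subunit and 17 small subunit genes. Each line joins the values of a transcript, and dark lines carry a name. Rps29 is highest throughout at 17483, 13440 and 11487 RPKM, 23 of the 37 lines are highest in DKO 2, and a few transcripts lie near or below 10 RPKM.

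In the large subunit the most abundant transcripts were Rpl7, Rpl27 and Rpl18. Rpl7 had 2693 RPKM in DKO 1 and 3012 RPKM in DKO 2, against 3595 RPKM in WT (log2 difference −0.34, SE 0.68). Rpl27 had 2846 and 2911 RPKM in the DKO libraries and 2729 RPKM in WT. The ratios of Rpl27 to WT were 1.04 and 1.07, and its mean difference turned negative with rescaling to TPM and with rescaling without globin genes. Rpl12, close behind, had 1764 and 3541 RPKM in the DKO libraries and 2497 RPKM in WT.

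By the mean of the DKO libraries, Rpl18 stood furthest above WT of all members, although in DKO 2 alone others stood higher, first the low transcript of Rpl31 (1.38 RPKM in DKO 1 and 4.76 in DKO 2, against 1.49 in WT) and then Rps2. Rpl18 (chr7:45715467-45720835) had 3916 RPKM in DKO 1 and 2350 RPKM in DKO 2, against 1537 RPKM in WT. The ratios to WT were 2.55 and 1.53, and the log2 difference was 0.98 (SE 0.72, limma adjusted p = 0.999). It was also the only large subunit member with over 200 RPKM that was lower in DKO 2 than in DKO 1. Rpl7a had 752 and 1190 RPKM in the DKO libraries, against 664 RPKM in WT.

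Rpl38, whose loss in mice alters the translation of Hox mRNAs and the axial skeleton, was read through a single low transcript. It had 2.03 RPKM in DKO 1 and 3.41 in DKO 2, against 1.78 in WT, which stand for about 23, 42 and 32 reads. Counting error on so few reads is large. The gene has 4 RefSeq mRNAs, and the other Rpl38 transcript in the table was listed at 0 throughout.

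At the lower end, Rpl30 had 7.31 and 6.36 RPKM in the DKO libraries, against 11.8 RPKM in WT (log2 difference −0.71, SE 0.67), also from a gene with several RefSeq mRNAs. Rpl3, which lies close to the peptidyl transferase centre, had 645 and 986 RPKM in the DKO libraries, against 1157 RPKM in WT. Rpl17 had 1990 and 2520 RPKM in the DKO libraries, against 2820 RPKM in WT. Rpl13a, known in human cells for silencing certain inflammatory mRNAs after release from the ribosome, had 1744 and 2408 RPKM in the DKO libraries and 2647 RPKM in WT. In each of these 4 genes both DKO values were below WT, and for the abundant 3 the DKO 2 value was the nearer to WT.

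The stalk protein gene Rplp0, often used as a reference gene in quantitative PCR, was the least stable large subunit transcript. It had 276 RPKM in DKO 1 and 984 RPKM in DKO 2, against 501 RPKM in WT, so the DKO libraries lay on either side of WT. The ratio of DKO 2 to DKO 1 was 3.56, the largest of all members. Rpl37a (1247 and 3446 RPKM in the DKO libraries, 1958 RPKM in WT) and Rpl8 (569 and 1375 RPKM, against 908 RPKM in WT) had the same order. In each of the 3 genes WT was the middle value.

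**Figure D3:**
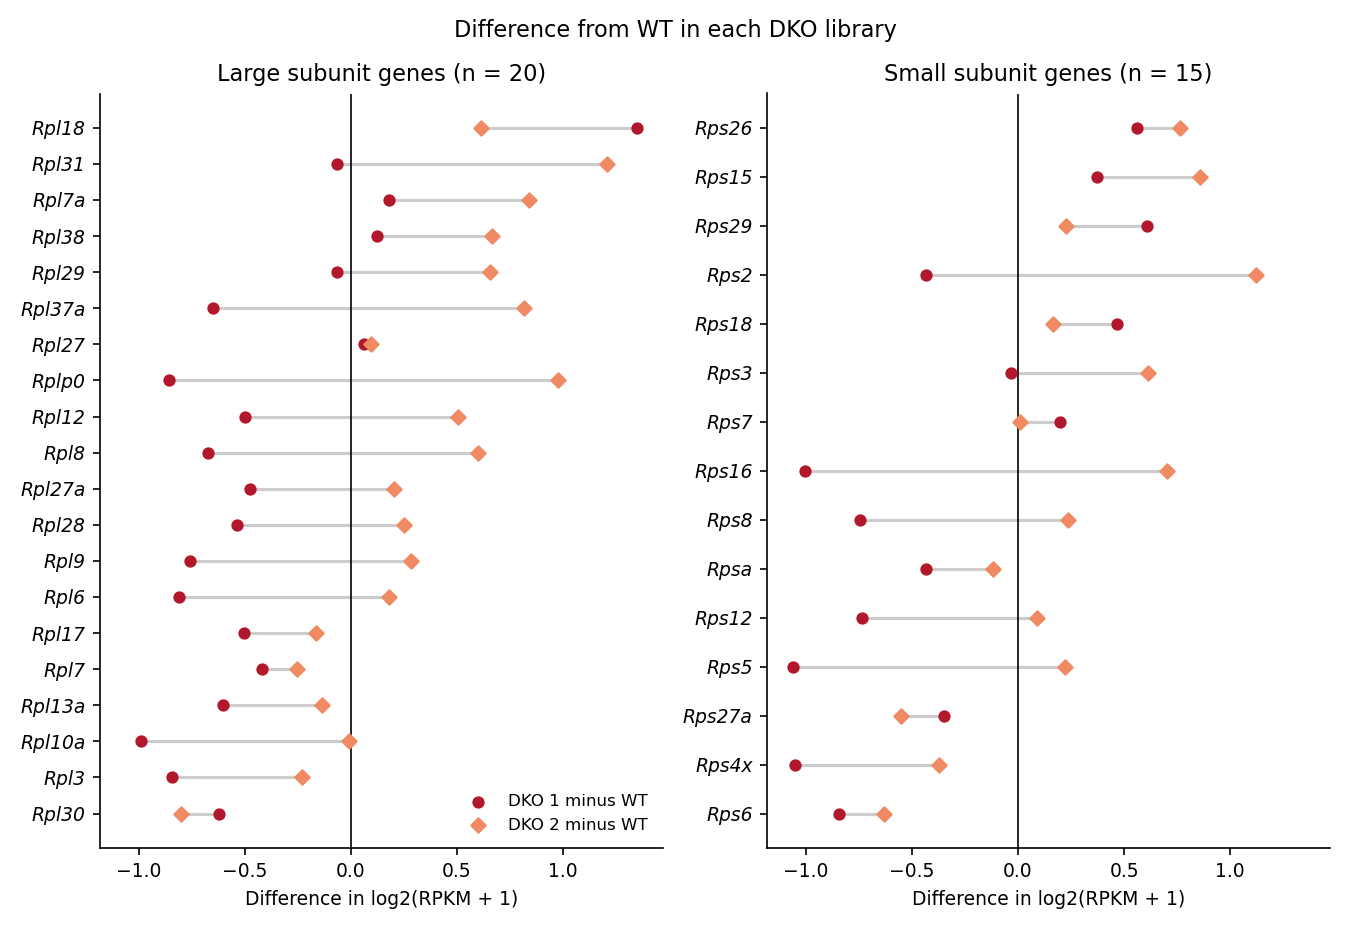
Difference from WT in log2(RPKM + 1) of 35 tested members, with DKO 1 as circles and DKO 2 as diamonds joined by a grey line, ordered within each subunit by the mean of the pair. In 16 rows the line crosses WT (0) with DKO 1 on the left (9 with rescaling to TPM), and Rpl18 and Rps6 lie at opposite ends among the abundant genes.

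In the small subunit, Rps29 and Rps18 were the most abundant. Rps29, a short zinc-binding protein, had 17483 RPKM in DKO 1 and 13440 RPKM in DKO 2, against 11487 RPKM in WT (log2 difference 0.42, SE 0.59). Rps18 had 9077 and 7368 RPKM in the DKO libraries, against 6565 RPKM in WT. Both genes were highest in DKO 1, and both lay above WT in each DKO library except with quantile normalization and rescaling to TPM.

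Diamond-Blackfan anaemia is a failure of red cell production in humans, and Rps26 and Rps7 are among the genes mutated in it. Rps26 (chr10:128624529-128626506) had 4948 and 5692 RPKM in the DKO libraries, against 3356 RPKM in WT, with ratios of 1.47 and 1.70 (log2 difference 0.66, SE 0.66). Rps7 had 4605 and 4042 RPKM in the DKO libraries and 4016 RPKM in WT, and its mean difference turned negative with rescaling to TPM and with quantile normalization. Rps24 and Rpl35a, also mutated in it, were listed at 0, but not every RefSeq mRNA of these genes was listed. Rps24 has 6 and Rpl35a has 3. Rps15, of the head of the small subunit, had 2974 and 4171 RPKM in the DKO libraries, against 2299 RPKM in WT.

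Rps6 and Rps4x stood furthest below WT. Rps6 (chr4:86854099-86857367), the ribosomal protein that S6 kinases phosphorylate in response to growth signals, had 1510 RPKM in DKO 1 and 1750 RPKM in DKO 2, against 2707 RPKM in WT. The ratios to WT were 0.558 and 0.647, and the log2 difference was −0.74 (SE 0.71, limma adjusted p = 0.999). Rps4x (chromosome X) had 1808 and 2888 RPKM in the DKO libraries, against 3743 RPKM in WT (log2 difference −0.71, SE 0.71). Rps4x is X-linked, and the libraries differed in the Y-linked transcripts given above, whose part in its level was not tested.

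Rps27a, made as a fusion of ubiquitin and a ribosomal protein, had 11.4 and 9.79 RPKM in the DKO libraries and 14.8 RPKM in WT, again for a gene with several RefSeq mRNAs. Rpsa, which has also been described as a laminin receptor, had 1527 and 1897 RPKM in the DKO libraries, against 2061 RPKM in WT. Rps3, which lines the mRNA entry channel, had 763 and 1194 RPKM in the DKO libraries and 781 RPKM in WT. The DKO values of Rps27a and Rpsa were both below WT, while those of Rps3 lay on either side, except with quantile normalization.

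The widest splits between the DKO libraries in the small subunit were in Rps16 and Rps2. Rps16 had 1543 RPKM in DKO 1 and 5034 RPKM in DKO 2, against 3089 RPKM in WT. Rps2 had 204 and 600 RPKM in the DKO libraries, against 275 RPKM in WT. The abundant members stood for about 6237 to 218126 reads per library, and the part of counting error in these splits was not tested.

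Summed over each subunit, the totals differed less than the most widely split single genes did. Large subunit transcripts came to 23517 RPKM in DKO 1 and 34184 RPKM in DKO 2, against 29168 RPKM in WT. Small subunit transcripts came to 59941 and 70149 RPKM in the DKO libraries, against 59671 RPKM in WT. The ratio of small to large sums was 2.55 in DKO 1 and 2.05 in DKO 2, against 2.05 in WT. Rps29 alone carried much of this, and without it the ratios were 1.81 and 1.66 in the DKO libraries and 1.65 in WT. The ratio of the subunit medians over the 33 abundant members ran the other way, at 1.77 in DKO 1 and 1.88 in DKO 2, against 2.10 in WT, so the subunit balance has no single direction.

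The members' share of all summed RPKM was 21.1% in DKO 1 and 21.3% in DKO 2, against 23.6% in WT. Globin transcripts took 7.24% and 21.0% of the summed RPKM in the DKO libraries and 5.36% in WT. With globin transcripts left out, the members' share was 22.7% in DKO 1 and 27.0% in DKO 2, against 24.9% in WT. DKO 2 was thus below WT with globin counted and above it without. The part of red cell RNA in the members' levels was not tested.

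The levels of the members were also spread unequally within the libraries. Among the 33 abundant members, the highest transcript exceeded the lowest by 85.8-fold in DKO 1 and 22.4-fold in DKO 2, against 41.7-fold in WT. In each library these were Rps29 and Rps2. The SD of log2(RPKM + 1) over the 33 members was 1.38 in DKO 1 and 1.01 in DKO 2, against 1.16 in WT. DKO 1 thus had the least even and DKO 2 the most even set of ribosomal protein mRNAs.

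Length and base composition of the transcripts were set beside these differences. The 16 shorter abundant members (390 to 851 bases) had a median difference of −0.28 in DKO 1, with 6 above WT, and the 17 longer ones (860 to 1938 bases) had a median of −0.53, with 2 above WT. In DKO 2 the medians were 0.24 and 0.20. Across the 33 members, Spearman's rho between length and the difference in DKO 1 was −0.31, and between length and the difference in DKO 2 it was −0.14. Between GC content and the difference it was 0.03 in DKO 1 and 0.31 in DKO 2. Across the 127 other abundant transcripts, rho with length was −0.16 in DKO 1 and −0.30 in DKO 2, and rho with GC content was 0.10 in DKO 1 and 0.61 in DKO 2. These transcripts share the same 3 libraries, the GC content of members spans only 45.8% to 58.3%, and the part of length and GC in the members' differences was not tested.

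**Figure D4:**
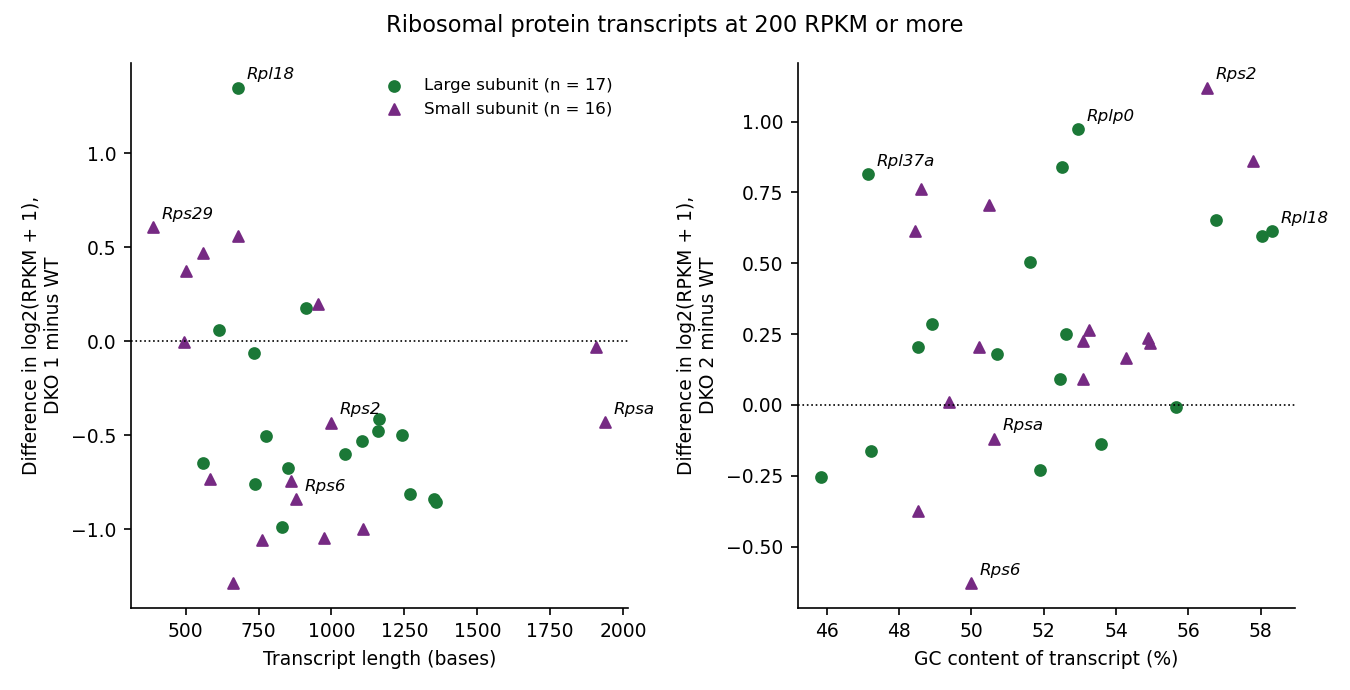
Difference from WT in log2(RPKM + 1) of the 33 members at 200 RPKM or more, against transcript length in bases for DKO 1 (left panel) and against GC content for DKO 2 (right panel), with large subunit genes as circles and small subunit genes as triangles. In DKO 1 only 2 members longer than 851 bases lie above 0, and in DKO 2 the 5 members with the most GC lie above 0.

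Genes that help to build ribosomes were examined beside their protein components. Rack1, a protein of the small subunit with another kind of name, had 860 RPKM in DKO 1 and 1871 RPKM in DKO 2, against 1287 RPKM in WT, an order that 18 of the 37 members had. Of 6 tested mRNAs that also carry a TOP tract or are often counted with them, 0 passed limma, 2 were above WT in both DKO libraries and 2 below it in both. The growth-related protein gene Tpt1 had 3151 and 3821 RPKM in the DKO libraries and 2720 RPKM in WT. The elongation factor gene Eef1a1 had 994 and 1288 RPKM in the DKO libraries, against 1659 RPKM in WT. The median of the 6 was −0.09 in DKO 1 and −0.06 in DKO 2. Directly compared, 4 of the 6 were higher in DKO 2 than in DKO 1, where 53.8% of all tested transcripts were. The median difference of DKO 2 from DKO 1 was 0.26 for the 6, against 0.66 for the members and 0.08 for all tested transcripts.

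For rRNA synthesis by RNA polymerase I, 6 transcripts were tested and 0 passed limma, with medians of −0.52 in DKO 1 and 0.35 in DKO 2. Ttf1, which ends and organises rRNA transcription, had 48.0 and 76.7 RPKM in the DKO libraries, against 28.4 RPKM in WT. The nucleolar protein gene Ncl had 24.7 and 14.0 RPKM in the DKO libraries, against 43.5 RPKM in WT. The polymerase subunit gene Polr1c had 21.7 and 45.7 RPKM in the DKO libraries and 42.3 RPKM in WT.

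Of 4 tested core proteins of the small nucleolar RNPs, which guide rRNA modification, 0 passed limma. Snu13 had 638 and 464 RPKM in the DKO libraries, against 317 RPKM in WT, and the methyltransferase gene Fbl had 45.8 and 87.3 RPKM, against 95.2 RPKM in WT. Of the 10 tested assembly factors, 0 passed limma, with 1 above WT in both DKO libraries, 4 below it in both and medians of −0.31 in DKO 1 and −0.07 in DKO 2. Emg1, an rRNA methyltransferase of the small subunit, had 51.9 and 107 RPKM in the DKO libraries, against 123 RPKM in WT. The kinase gene Rps6kb1, whose product phosphorylates Rps6, had 3.77 and 3.12 RPKM in the DKO libraries, against 2.66 RPKM in WT.

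Of the nuclear genes for mitochondrial ribosomal proteins, 8 were tested and 0 passed limma. Their medians were −0.24 in DKO 1 and 0.02 in DKO 2, and 4 of 8 were higher in DKO 2 than in DKO 1. Mrpl23 had 556 and 1337 RPKM in the DKO libraries, against 848 RPKM in WT, and Mrpl40 had 102 and 71.4 RPKM, against 150 RPKM in WT. Among 16 tested proliferation genes, 0 passed limma, and the medians were −0.17 in DKO 1 and 0.07 in DKO 2. No difference between any of these lists and the ribosomal protein genes was tested.

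**Figure D5:**
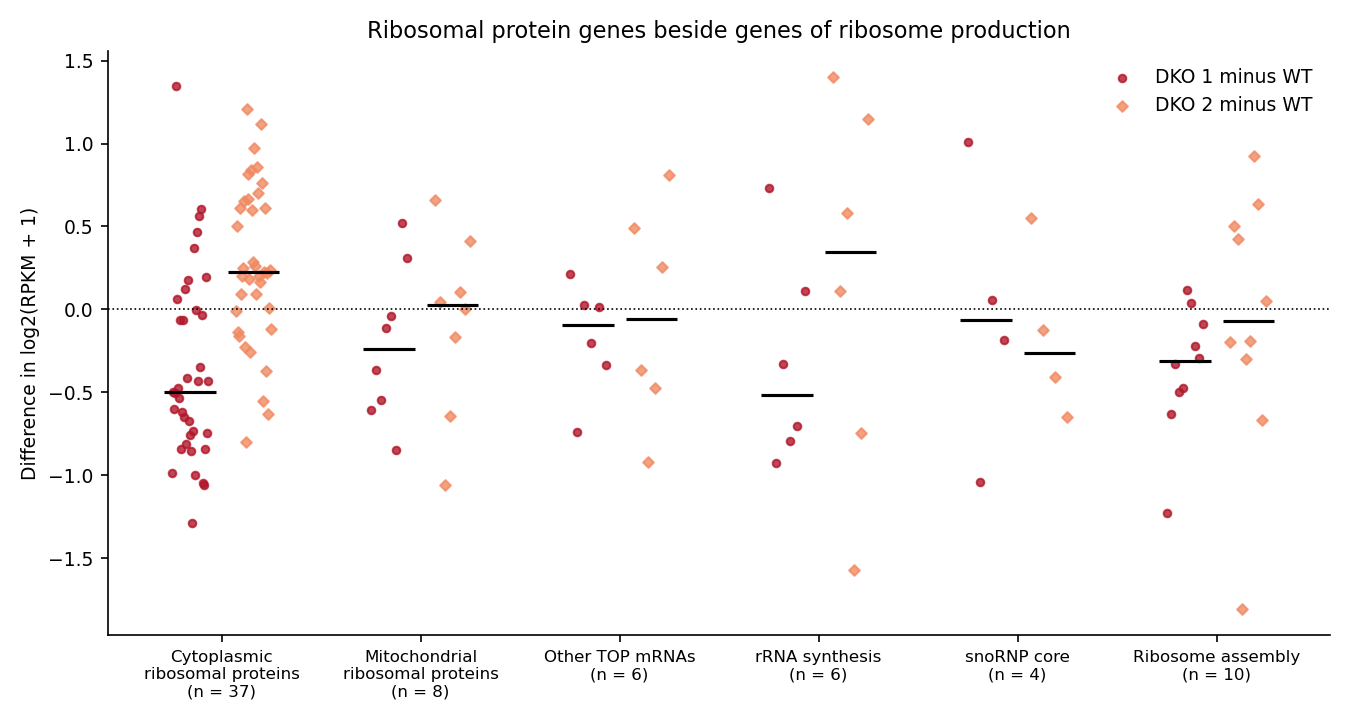
Difference from WT in log2(RPKM + 1) of each tested transcript of 6 lists, with DKO 1 as circles left of DKO 2 as diamonds and a black bar at each median. The median of the cytoplasmic ribosomal protein genes is −0.50 in DKO 1 and 0.23 in DKO 2. With rescaling to TPM, which is not drawn, their DKO 2 median is −0.15 and that of all tested transcripts is −0.30. The median of rRNA synthesis genes, over 6 transcripts, is −0.52 and 0.35.

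Marker lists of other cell types differed between the libraries to unequal extents. The immune list had 12 of 19 genes above 0, and its summed level was 470 RPKM in DKO 1 and 234 RPKM in DKO 2, against 85.3 RPKM in WT, with Ptprc, Cd68 and Itgam listed at 0. The liver list, with 5 of 8 genes above 0, summed to 11.4 and 183 RPKM in the DKO libraries and 7.55 RPKM in WT. The heart list, with 5 of 9 genes above 0, summed to 19.4 and 111 RPKM in the DKO libraries and 29.2 RPKM in WT. The endothelial list, with 6 of 11 genes above 0, summed to 13.5 and 17.4 RPKM in the DKO libraries and 11.4 RPKM in WT. Their part in the levels of ribosomal protein genes was not tested.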

How the data were processed

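RNA of 3 whole-lung libraries was sequenced after library construction with the SMARTer Ultra Low Input kit, per the labels' protocols. The authors deposited RPKM values for RefSeq transcripts. Per the submitters' processing notes, cutadapt, TopHat2, HTSeq and edgeR were used with build mm10, and no source used here gives versions, roles, transcript lengths or strand handling, so overlapping genes are uncertain. Symbols came from RefSeq on GRCm38.p6 for 16151 of 16383 transcripts, and GENCODE M21 brought this to 16228. Lengths and GC content came from GENCODE.

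Depth was estimated from the commonest low value of RPKM times length in kilobases. A whole number of reads, give or take 0.05, was found for 45.2% of low values in DKO 1, 43.9% in DKO 2 and 45.7% in WT (10% by chance), so read numbers are approximate. Values were analysed as log2(RPKM + 1), which understates changes of low genes, for the 2066 transcripts averaging 1 RPKM or more. Differences were tested with limma 3.58.1 (R 4.3.3), two-sided and with a mean-variance trend, at a Benjamini-Hochberg adjusted p of 0.05, with 1 residual degree of freedom and a prior of 11.2, and was tested on simulated data. The members and lists were chosen with earlier results of these data known. Named are the 3 most abundant members of each subunit, the 4 furthest above and below WT in both DKO libraries, and a fixed list; Rpl8, Rpl10l, Rpl12, Rpl19, Rpl26, Rpl31, Rpl32l, Rpl34, Rpl37a, Rps2 and Rps16 were added after their values were seen, and 2 members are not reported here by name. Alternatives were pseudocounts of 0.1 and 5, other filters, 4 scalings, 2 variance models, single-transcript genes and leaving out each DKO library.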

Additional observations from a re-analysis of the deposited data

How the results depend on the processing

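Under each of the 11 alternatives with a test, 0 ribosomal protein transcripts passed limma. Without a filter on low values, an unadjusted limma p under 0.05 was reached by 2 of 43 members and by 260 of all 5245 transcripts. Under the other alternatives 0 members reached it. Over all transcripts the count called was 2, against 13 with a pseudocount of 0.1, 1 with a pseudocount of 5, 10 with a minimum of 5 RPKM, 16 with median scaling, 14 with rescaling without globin genes, and 0 without a filter, with quantile normalization and with rescaling to TPM, where 260, 45 and 38 had an unadjusted p under 0.05. Members above WT in both DKO libraries numbered 9, but 5 with rescaling to TPM, and those below it in both numbered 10, but 20 with rescaling to TPM, which moved the median of all tested transcripts by −0.21. Without either DKO library in turn, 9 to 27 members lay above WT, the large subunit median ran from −0.52 to 0.27 and the small subunit median from −0.43 to 0.22. Of 215 values of the 20 named members under the other alternatives, 7 changed sign, in Rpl27, Rplp0 and Rps7. No paired analysis was possible because the labels give no pairing of the WT library with a DKO library. Each abundant member stood for about 6237 or more reads per library, but 17 transcripts averaged below 1 RPKM.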
